A study of Rattus norvegicus with 8 samples.

Results

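Tropomyosins, filamins and LIM adaptor proteins were examined as 10 genes that build and anchor the actin filaments of smooth muscle, namely Tpm1, Tpm2, Flna, Flnc, Pdlim3, Pdlim7, Tgfb1i1, Vcl, Synm and Csrp1. They were taken by name, each name matched 1 of the 32623 rat genes listed, and all 10 passed the filter on low counts. RNA came from outflow veins of 8 Sprague Dawley rats, collected 21 days after an arteriovenous fistula (AVF) was made by joining the epigastric vein to the femoral artery. An electrospun scaffold with a layer of polylactic acid and a layer of poly(lactic-co-glycolic acid) was wrapped around the vein of every rat at surgery. In 4 rats (3 females and 1 male) the latter layer was loaded with β-aminopropionitrile (BAPN), a blocker of lysyl oxidase, the enzyme family that links collagen and elastin fibres covalently, and in 4 vehicle rats (2 females and 2 males) it carried no drug. The age of the rats is not given in the sources used here.

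Contraction of a smooth muscle cell needs actin filaments that are stabilized along their length, crosslinked into a network, and anchored to dense bodies in the cytoplasm and to focal adhesions at the membrane. Tropomyosins lie along the filament and filamins crosslink it. Adaptor proteins with LIM domains, vinculin and the intermediate filament protein synemin tie the filaments to the anchoring sites. In the wall of a blood vessel such filaments are found in smooth muscle cells, pericytes and myofibroblasts.

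Library totals ranged from 45039451 to 52241007 counts with BAPN and from 19548203 to 22442050 with vehicle, so depth separated the groups and a difference in library preparation that followed it cannot be told apart from the treatment. With all libraries thinned to 19548203 counts, 1807 genes were called where the full counts gave 1957. The lowest count of any of the 10 genes in any library was 589, so counting error was small beside the spread between rats. Expression is given as CPM (a gene's count as a proportion of its library's total, whose size was scaled by the trimmed mean method), and the groups were compared with edgeR's quasi-likelihood test over 11682 genes (FDR by the Benjamini-Hochberg method). Each log2 fold change (log2 FC) sets BAPN against vehicle, and its standard error (SE) came from limma-voom. Among all tested genes 9.25% were called lower and 7.50% higher with BAPN at an FDR below 0.05, that is 1081 and 876 genes. Scaled by total counts only, the calls were 1161 lower and 504 higher. All 9 smooth muscle markers, among them Tagln and Acta2, had counts in every library. In RNA from a whole vein wall, fewer smooth muscle cells and less RNA per cell cannot be told apart.

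All 10 genes had a lower fitted level in BAPN-treated AVFs, and 2 passed the threshold, Synm and Tgfb1i1. Their median log2 fold change was -0.58, where that of all tested genes was 0.02, and 48.4% of all tested genes had a value below 0. In 4 of the 10, Synm, Tgfb1i1, Flna and Flnc, the highest BAPN rat lay below the lowest vehicle rat, a separation found in this direction in 11.9% of all tested genes. DESeq2 called 5 genes lower, these 4 and Csrp1, where it called 15.1% of all tested genes lower. The tropomyosins, Vcl and both PDZ-LIM genes were called by neither tool. 2 rats stood apart for the 10 genes as a set: BAPN 2 had the highest value of its group in 8 of them and Vehicle 4 in 8. Averaged over the 10 genes, log2 CPM was 7.74 in BAPN 2 and between 6.94 and 7.14 in the other BAPN rats, while the vehicle rats lay between 7.62 and 8.29. Without BAPN 2 the number called was 4 and the median log2 fold change was -0.80, in a fit that called 751 of the 11682 genes lower. Leaving out Vehicle 4 gave 2 calls and a median of -0.47, with 546 of all genes called lower. With both left out, a choice made after seeing the data, 3 were called, Synm, Tgfb1i1 and Pdlim3, the median was -0.63, and 366 of all genes were called lower. Among the 5 females alone, none of the 10 was called by edgeR (3 had an unadjusted p below 0.05), the median was -0.23, and 54 of all genes were called lower. These females include BAPN 2. The males left out were BAPN 4 (average 6.98) and the vehicle rats with the highest averages, Vehicle 3 (7.89) and Vehicle 4 (8.29). Sex and the levels of these single rats cannot be told apart.

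**Figure D1:**
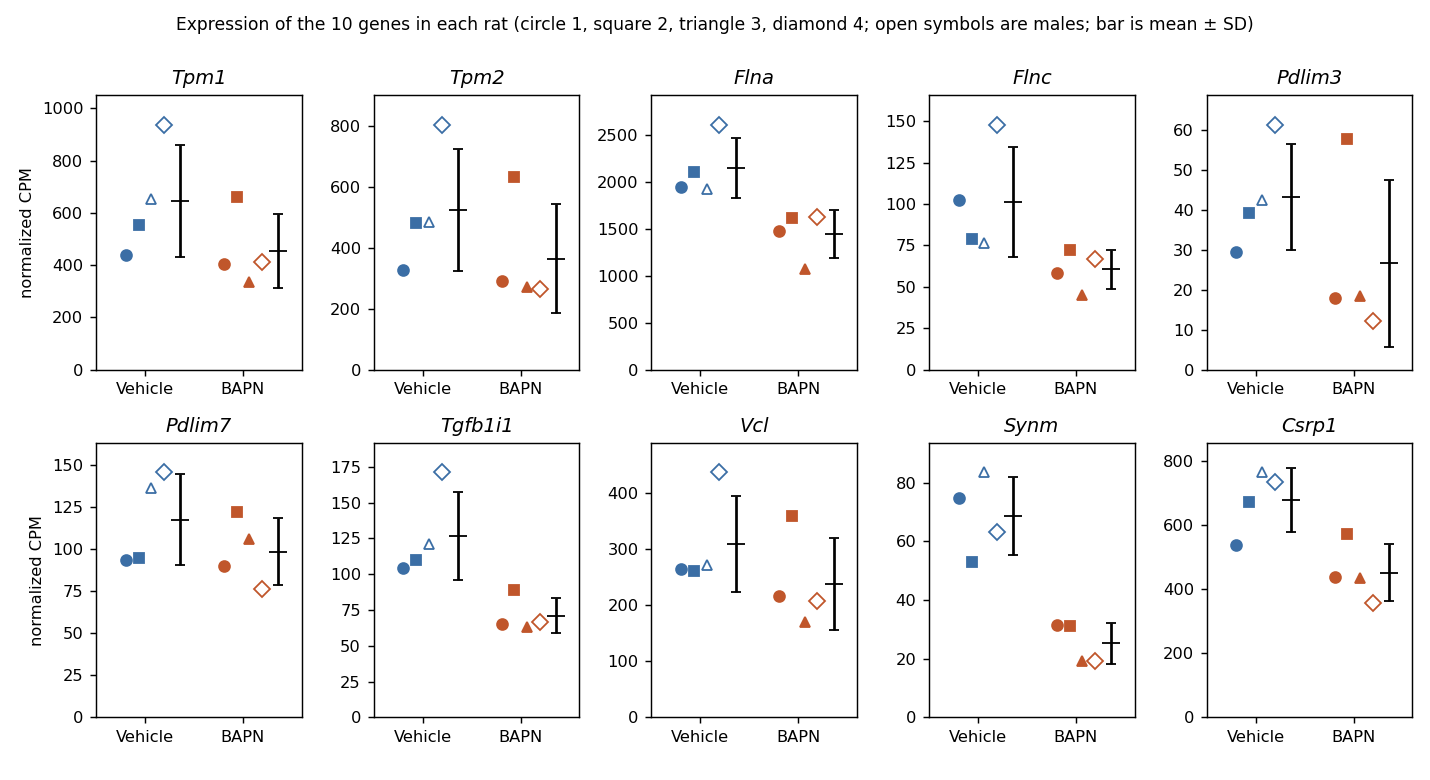
Normalized CPM (linear axes from 0) of the 10 genes in each rat, vehicle in blue and BAPN in orange, males as open symbols, with a bar for the mean ± SD of 4 rats. For Synm, Tgfb1i1, Flna and Flnc the groups do not overlap, while BAPN 2 (orange square) lies among the vehicle rats for Tpm1, Tpm2, Pdlim3, Pdlim7, Vcl and Csrp1.

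Promoter sequences are shown for the 2 genes that passed the threshold and for Tpm1, the only other gene of the set with a near match to the CArG box. That box is the binding sequence of serum response factor (SRF), which drives many smooth muscle genes with its coactivators. The 250 bases before the RefSeq start were available for 9 of the 10 genes (all but Pdlim3) in build GRCr8, and the build of the count files is not named. Capitals mark CArG boxes with 1 mismatch and, in Tpm1, the MCAT element CATTCC as its reverse complement, and the matches do not overlap. Synm is at chr1:130773825-130774074, minus strand, Tgfb1i1 at chr1:192258856-192259105, plus strand, and Tpm1 at chr8:76543416-76543665, minus strand.
Synm: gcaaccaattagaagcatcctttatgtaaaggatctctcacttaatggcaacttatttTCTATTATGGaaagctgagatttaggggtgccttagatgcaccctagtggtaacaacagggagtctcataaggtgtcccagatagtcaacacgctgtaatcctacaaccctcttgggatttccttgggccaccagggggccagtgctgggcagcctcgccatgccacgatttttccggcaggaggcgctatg
Tgfb1i1: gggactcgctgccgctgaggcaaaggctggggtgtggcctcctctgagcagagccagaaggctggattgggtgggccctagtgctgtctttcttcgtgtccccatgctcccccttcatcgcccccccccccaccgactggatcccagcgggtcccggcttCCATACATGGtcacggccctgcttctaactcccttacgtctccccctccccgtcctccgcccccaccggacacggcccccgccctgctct
Tpm1: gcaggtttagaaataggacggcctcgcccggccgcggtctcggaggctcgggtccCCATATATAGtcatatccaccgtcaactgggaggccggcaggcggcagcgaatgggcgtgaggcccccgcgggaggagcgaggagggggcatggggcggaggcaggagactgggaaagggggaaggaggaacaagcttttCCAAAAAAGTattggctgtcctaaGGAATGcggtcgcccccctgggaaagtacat
On either strand, no exact CArG box was found in the 9 windows, and 1.5% of 33469 RefSeq promoters held one in the same 250 bases. A box with at most 1 mismatch was found in 3 of the 9 (18.7% of all promoters), once in Synm 192 bases before the start, once in Tgfb1i1 90 bases before it, and at 2 places in Tpm1. The MCAT element was found in 4 of the 9, Tpm1, Flna, Flnc and Vcl (12.1% of all promoters). A match is a string of letters and not a shown binding site, and other start sites of these genes were not searched.

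Synm (ENSRNOG00000014030) encodes synemin, an intermediate filament protein that joins desmin filaments to vinculin and to the dystrophin complex. It was at 31.3, 31.1, 19.3 and 19.1 CPM in the BAPN rats 1 to 4, and at 74.7, 52.9, 83.4 and 63.0 CPM in the vehicle rats 1 to 4. Every BAPN rat was thus well below the lowest vehicle rat, and BAPN 2, high for most other genes, was not set apart here. Synm fell to 36.8% of the vehicle level, with group means of 68.5 ± 13.4 CPM for vehicle and 25.2 ± 6.93 CPM for BAPN (± SD, n = 4 per group). Its log2 FC was -1.44 (SE 0.21, FDR 0.00876). Synm kept its call in all 8 fits that left out 1 rat, with log2 FCs from -1.57 to -1.33. With only the 5 females it was -1.23, past the threshold no longer (FDR 0.0787). The exact two-sided permutation test over the 70 arrangements of 4 against 4 gave p = 0.0286, the smallest it can give.

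Synemin's partners in the intermediate filament network went in both directions. Des, the desmin gene, averaged 332 CPM with vehicle and fell to 206 CPM (log2 FC -0.68, SE 0.17, FDR 0.029), and Vim, the vimentin gene of fibroblasts, leukocytes and immature muscle cells, rose from 4006 to 5910.2 CPM (0.56, SE 0.16, FDR 0.0474). The log2 ratio of Synm to Vim within a library was between -8.36 and -7.46 in the BAPN rats and between -6.30 and -5.44 in the vehicle rats. The difference was -2.02 (exact two-sided permutation p = 0.0286, adjusted p = 0.2 over 14 ratios tested). For Synm to Des it was -0.79 and the groups overlapped (exact permutation p = 0.0571, adjusted p = 0.2). None of the 14 ratios reached an adjusted p of 0.05, which in a design of 4 rats against 4 requires most of the 14 to separate fully.

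Tgfb1i1 (ENSRNOG00000019965) encodes Hic-5, a focal adhesion protein of the paxillin family with LIM domains, known as a TGF-β1 induced transcript. Values were 65.3, 88.9, 63.1 and 66.8 CPM in the BAPN rats 1 to 4, and 104, 109.9, 121 and 171 CPM in Vehicle 1 to 4. The groups did not overlap, although BAPN 2 stood nearest to the vehicle rats. The fitted level was 56.1% of the vehicle level (log2 FC -0.83, SE 0.18, FDR 0.0205). Without BAPN 3 (FDR 0.0577) or BAPN 4 (FDR 0.0516) the call was lost, and the log2 FC over the fits without 1 rat lay between -0.97 and -0.65. It was also lost in females alone (-0.56, FDR 0.131). Pxn, the gene of paxillin itself, averaged 125 CPM (BAPN) and 142 CPM (vehicle) (-0.19, SE 0.14, FDR 0.363). The log2 ratio of Tgfb1i1 to Pxn was lower by 0.62 on average with BAPN, and BAPN 2 at -0.494 just exceeded Vehicle 1 at -0.496 (exact permutation p = 0.0571, adjusted p = 0.2).

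Filamins crosslink actin filaments and bind integrin tails. Flna (ENSRNOG00000054890), the widely expressed filamin A, was at 1475, 1612, 1068 and 1620.3 CPM in the BAPN rats 1 to 4, and at 1948, 2099, 1919 and 2608 CPM in the vehicle rats 1 to 4. No BAPN rat reached the lowest vehicle rat, and the fitted level was 67.3% of that of vehicle (log2 FC -0.57, SE 0.19). DESeq2 called Flna (FDR 0.00821) and edgeR did not (FDR 0.0684), nor in any of the 8 fits without 1 rat. Its value in females alone, -0.55, was close to that in all 8 rats.

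Flnc (ENSRNOG00000007281), filamin C of striated muscle and of some smooth muscle, was at 58.3, 72.0, 45.3 and 66.6 CPM in BAPN 1 to 4. In Vehicle 1 to 4 it was at 103, 78.7, 76.4 and 148 CPM. The gap between the groups was small, 72.0 CPM in BAPN 2 against 76.4 CPM in Vehicle 3, and the log2 FC was -0.74 (SE 0.23, edgeR FDR 0.0531, DESeq2 FDR 0.0143). Scaling by upper quartile factors (FDR 0.0492) or total counts only (FDR 0.0388) placed it below the threshold, as did leaving out Vehicle 2 (FDR 0.0394). The log2 FC was -0.51 without Vehicle 4 (FDR 0.0954), -0.63 without BAPN 3 (FDR 0.13) and -0.63 in females alone (FDR 0.154), and the FDR with sex as a covariate was 0.104. The log2 ratio of Flnc to Flna within a library differed by -0.13 between the groups, with overlap (exact permutation p = 0.4, adjusted p = 0.56).

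Csrp1 (ENSRNOG00000008937), a LIM protein of smooth muscle that binds α-actinin and zyxin, was at 439, 573, 434 and 359 CPM in the BAPN rats 1 to 4, and at 539, 674, 765 and 736 CPM in the vehicle rats 1 to 4. Only BAPN 2 was above the lowest vehicle rat, and the exact permutation p was 0.0571. Means were 451 ± 89.1 and 678 ± 100.4 CPM (mean ± SD, n = 4 per group), a log2 FC of -0.59 (SE 0.18, edgeR FDR 0.0542, DESeq2 FDR 0.00692). Without BAPN 2 the log2 FC was -0.74 and edgeR called it (FDR 0.0412), and in females alone it was -0.33 (FDR 0.348). The paralog Csrp2 averaged 36.3 CPM (BAPN) and 33.5 CPM (vehicle) (0.12, SE 0.43, FDR 0.863), and the log2 ratio of Csrp1 to Csrp2 differed by -0.71 with overlap between the groups (exact permutation p = 0.171, adjusted p = 0.3).

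Pdlim3 and Pdlim7 encode PDZ-LIM proteins, which bind α-actinin or tropomyosin through the PDZ domain. Pdlim3 (ENSRNOG00000012658) was at 18.0, 57.7, 18.6 and 12.3 CPM in the BAPN rats 1 to 4, and at 29.5, 39.2, 42.6 and 61.4 CPM in the vehicle rats 1 to 4. BAPN 2 exceeded 3 of the 4 vehicle rats while the other BAPN rats lay below all of them. With all rats the log2 FC was -0.70 (SE 0.44, FDR 0.295), without BAPN 2 it was -1.42 (FDR 0.0254), without Vehicle 4 -0.48 (FDR 0.525), and in females alone -0.13 (FDR 0.898). Pdlim7 (ENSRNOG00000013653), also called enigma, was between 76.3 and 122 CPM with BAPN and between 93.8 and 146 CPM with vehicle. The log2 FC was -0.25 (SE 0.20, FDR 0.372), -0.39 without BAPN 2, -0.16 without BAPN 4 and -0.13 without Vehicle 4, and among females alone it turned to 0.17 (FDR 0.536).

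Vcl (ENSRNOG00000010765) encodes vinculin, which links talin and α-actinin to actin at focal adhesions. It was at 216, 358, 169 and 207 CPM in the BAPN rats 1 to 4, and at 265, 262, 271 and 437 CPM in the vehicle rats 1 to 4, so that 1 rat in each group was far above the rest. The log2 FC was -0.38 (SE 0.25, FDR 0.321), -0.65 without BAPN 2, -0.16 without Vehicle 4 and -0.09 in females alone. Tln1, the gene of its binding partner talin, was at 819 and 921 CPM (-0.17, SE 0.17, FDR 0.498). The gene-level counts do not tell vinculin from its longer muscle form, metavinculin.

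**Figure D2:**
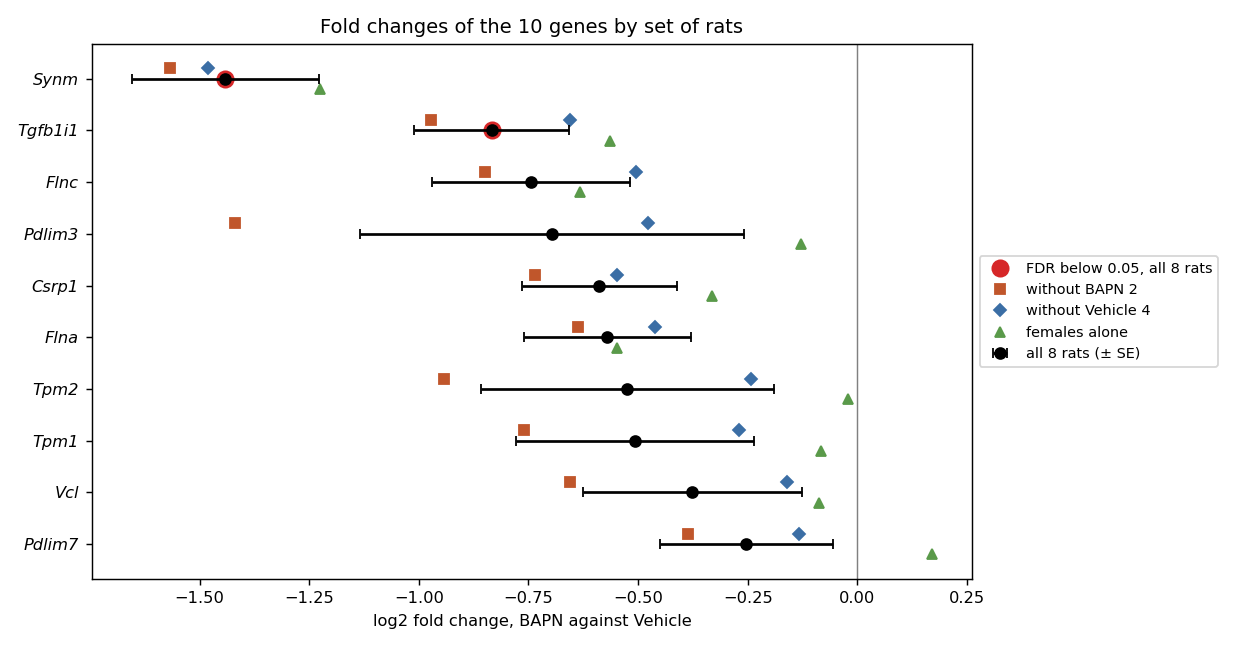
Log2 fold change of BAPN against vehicle for the 10 genes, with all 8 rats (black, ± SE; ringed in red where the FDR was below 0.05), without BAPN 2, without Vehicle 4 and in females alone. Synm lies at -1.44 with little movement, Pdlim3 moves from -0.70 to -1.42 without BAPN 2, and Tpm1, Tpm2, Vcl, Pdlim3 and Pdlim7 lie between -0.13 and 0.17 in females alone.

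Tropomyosins set which myosins and crosslinkers can bind an actin filament. Tpm1 (ENSRNOG00000018184) was at 402, 662, 337 and 412 CPM in the BAPN rats 1 to 4, and at 438, 552, 651 and 937 CPM in the vehicle rats 1 to 4. The 3 BAPN rats other than BAPN 2 lay below all vehicle rats, and Vehicle 1 was close to them. Its log2 FC was -0.51 (SE 0.27, FDR 0.217). Tpm2 (ENSRNOG00000016731) was at 291, 632, 269.6 and 264 CPM in the BAPN rats 1 to 4, and at 328, 479, 485 and 803 CPM in the vehicle rats 1 to 4. As for Tpm1, Vehicle 1 was the lowest and Vehicle 4 the highest of the vehicle rats. The fitted difference was -0.52 on the log2 scale (SE 0.33, FDR 0.306). Without Vehicle 4 the values were -0.27 for Tpm1 and -0.24 for Tpm2, and without BAPN 2 they were -0.76 and -0.94, neither called. Females alone gave -0.08 and -0.02.

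Tpm3 and Tpm4, the tropomyosins that non-muscle cells use most, had values on the other side. Tpm4 averaged 829 CPM (BAPN) and 669 CPM (vehicle) (log2 FC 0.31, SE 0.15, FDR 0.175), and Tpm3 averaged 457 and 414 CPM (0.14, SE 0.13, FDR 0.443). Reads per gene were not divided by gene length, so a share of reads compares one gene between rats and not the genes with each other. Of the reads on the 4 tropomyosin genes, Tpm4 took 40.3%, 33.1%, 42.3% and 44.1% in the BAPN rats 1 to 4, and 35.8%, 30.5%, 27.3% and 27.2% in Vehicle 1 to 4. Only BAPN 2 overlapped with the vehicle rats. The mean share was 39.9% ± 4.83 with BAPN and 30.2% ± 4.02 with vehicle (mean ± SD, n = 4 per group), 9.75 percentage points apart (exact permutation p = 0.0571, adjusted p = 0.267 over 7 shares). Tpm1 took 21.2% ± 2.92 and 28.2% ± 3.68 (exact permutation p = 0.0857) and Tpm2 16.8% ± 5.14 and 22.7% ± 3.58 (exact permutation p = 0.114, adjusted p = 0.267 for both). None of the 7 shares passed the adjusted threshold, and in females alone the Tpm4 difference was 5.42 percentage points. Tpm1 and Tpm2 make muscle and non-muscle forms by alternative splicing, which counts per gene do not separate.

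**Figure D3:**
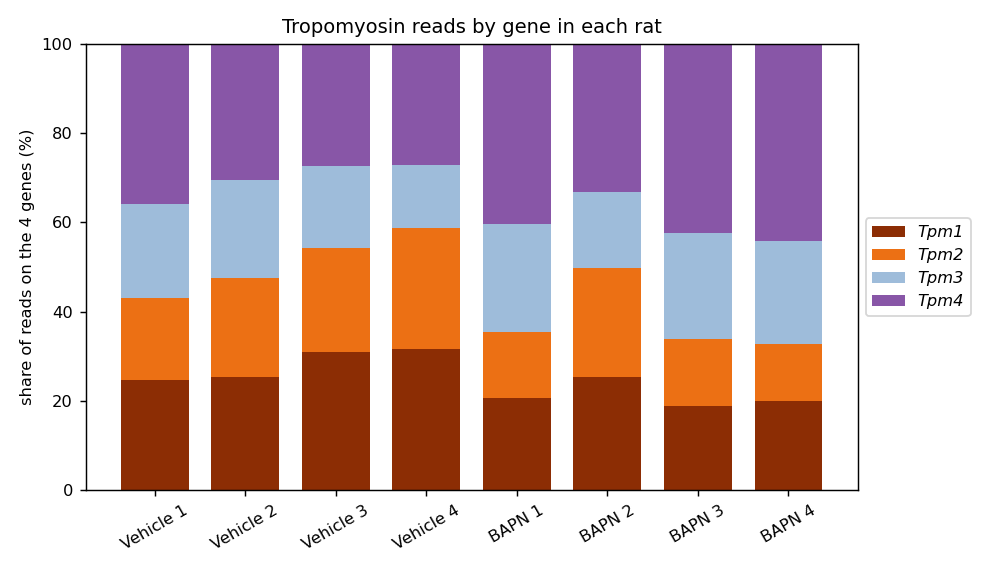
Share of the reads on Tpm1, Tpm2, Tpm3 and Tpm4 (percent, bars add to 100) in each rat. Tpm4 takes 40.3% to 44.1% in BAPN 1, 3 and 4, against 27.2% to 35.8% in the vehicle rats, and BAPN 2, at 33.1%, lies within the vehicle range.

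The 10 genes were next set against the contractile apparatus of the same rat, taken as the mean log2 CPM of Myh11, Acta2, Tagln, Cnn1 and Lmod1. That mean was 7.73, 8.68, 7.24 and 7.32 in the BAPN rats 1 to 4, and 8.56, 9.03, 9.18 and 9.21 in Vehicle 1 to 4, so BAPN 2 reached the vehicle range here as well. Of all 9 smooth muscle markers 6 were called lower. Among the 5 averaged here Myh11 (log2 FC -1.60, FDR 0.0148), Cnn1 (-1.60, FDR 0.0295) and Lmod1 (-1.30, FDR 0.0124) fell, while Acta2 (-0.75, FDR 0.26) and Tagln (-0.64, FDR 0.217) were not called. Relative to the mean of the 5 markers, 9 of the 10 genes were on average higher with BAPN. This holds for the mean and not for each marker, since Tgfb1i1 had a lower log2 FC (-0.83) than Acta2 and Tagln, and Flnc (-0.74) and Pdlim3 (-0.70) a lower one than Tagln. For Tpm1 (difference 0.75), Tpm2 (0.70), Pdlim7 (1.01) and Vcl (0.85) every BAPN rat, BAPN 2 included, was above every vehicle rat (exact permutation p = 0.0286 for each, adjusted p = 0.0714 over 10). In Synm alone the difference was below 0, at -0.21, and the groups overlapped (exact permutation p = 0.571). None of the 10 differences passed an adjusted p of 0.05, and over the 8 sets without 1 rat the 4 separated differences kept their sign, the lowest being 0.62 and the highest 1.21.

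**Figure D4:**
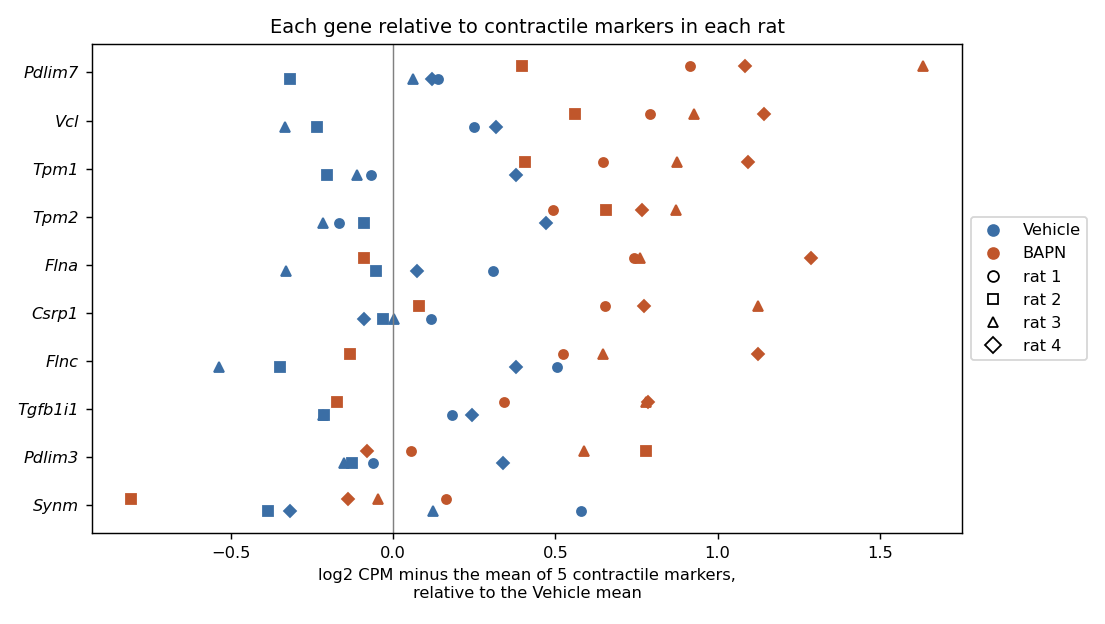
Log2 CPM of each gene minus the mean of 5 contractile markers in each rat, shifted so that the vehicle mean is 0 (blue, vehicle; orange, BAPN; marker shape gives the rat number). Tpm1, Tpm2, Vcl and Pdlim7 show no overlap, and the Synm values of the groups overlap.

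A wider list of 66 related genes was taken by name, of which 59 were tested. Of these, 16 (27.1%) were called lower and 2 higher, where 9.25% and 7.50% of all tested genes were, and the median log2 FC was -0.35. The list was written with earlier results of these data known. With all rats 18 were called in either direction, of 1957 among all tested genes. The calls numbered 9 of 745 without BAPN 3, 9 of 856 without BAPN 4 and 6 of 397 without Vehicle 1. They numbered 10 of 1210 without Vehicle 3, 8 of 963 without Vehicle 4 and 12 of 1329 without BAPN 1. In these fits they dropped along with those of all genes. Without BAPN 2 they stayed at 18 while those of all genes fell to 1224, and without Vehicle 2 they were 18 of 2215. In females alone edgeR called 89 genes and none of the 59 (17 had an unadjusted p below 0.05).

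Among 25 focal adhesion adaptors 6 fell, 21 had a value below 0, and the median log2 FC was -0.28. Among the 6 were Lpp, a zyxin relative of smooth muscle (-2.21, SE 0.42, FDR 0.0127), the tensins Tns1 (-1.38, FDR 0.0225) and Tns2 (-1.11, FDR 0.0157), the vinculin-binding adaptor Sorbs2 (-1.49, FDR 0.0169), and Lims2 (-0.78, FDR 0.0333), a partner of integrin-linked kinase. Lpp went from 22.7 to 4.89 CPM and Tns1 from 409.6 to 158 CPM. The broadly expressed Tln1, above, and Actn4 (-0.26, FDR 0.418) were not called.

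Of 10 tested genes of intermediate filaments and dense bodies, 6 fell and 1, Vim, rose, with a median of -0.94. Synpo2, an actin-bundling protein of dense bodies, fell most, from 131 to 28.2 CPM (-2.21, SE 0.33, FDR 0.00946). Dmd, the dystrophin gene (-1.06, FDR 0.0127), Dtna, of dystrobrevin (-1.71, FDR 0.0436), Svil, of supervillin (-0.91, FDR 0.0242), and Ldb3, a PDZ-LIM protein (-1.31, FDR 0.0282), fell along with Des. Plec, of the linker plectin, was at 634 and 801 CPM (-0.34, FDR 0.223).

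Among 13 PDZ-LIM and LIM-only relatives, Ldb3 and Pdlim2 (-0.58, SE 0.17, FDR 0.0476) fell and Crip1, a small LIM-only protein, rose from 367 to 584 CPM (0.67, SE 0.18, FDR 0.0349). Lasp1, of an actin-binding LIM protein, was at 464 and 466 CPM (-0.01, FDR 0.978). Of 9 relatives of the tropomyosins and filamins, Tmod2, which caps the pointed ends of filaments coated with tropomyosin (-1.32, SE 0.25, FDR 0.0161), and Filip1l, a filamin-interacting protein homolog (-0.73, SE 0.19, FDR 0.0346), fell. All 3 tested genes of SRF and its coactivators had negative values, Mrtfa at -0.59 (SE 0.12, FDR 0.0163), Srf at -0.40 (SE 0.13, FDR 0.056) and Myocd at -1.29 (SE 0.56, FDR 0.14), and Mrtfa passed the threshold.

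**Figure D5:**
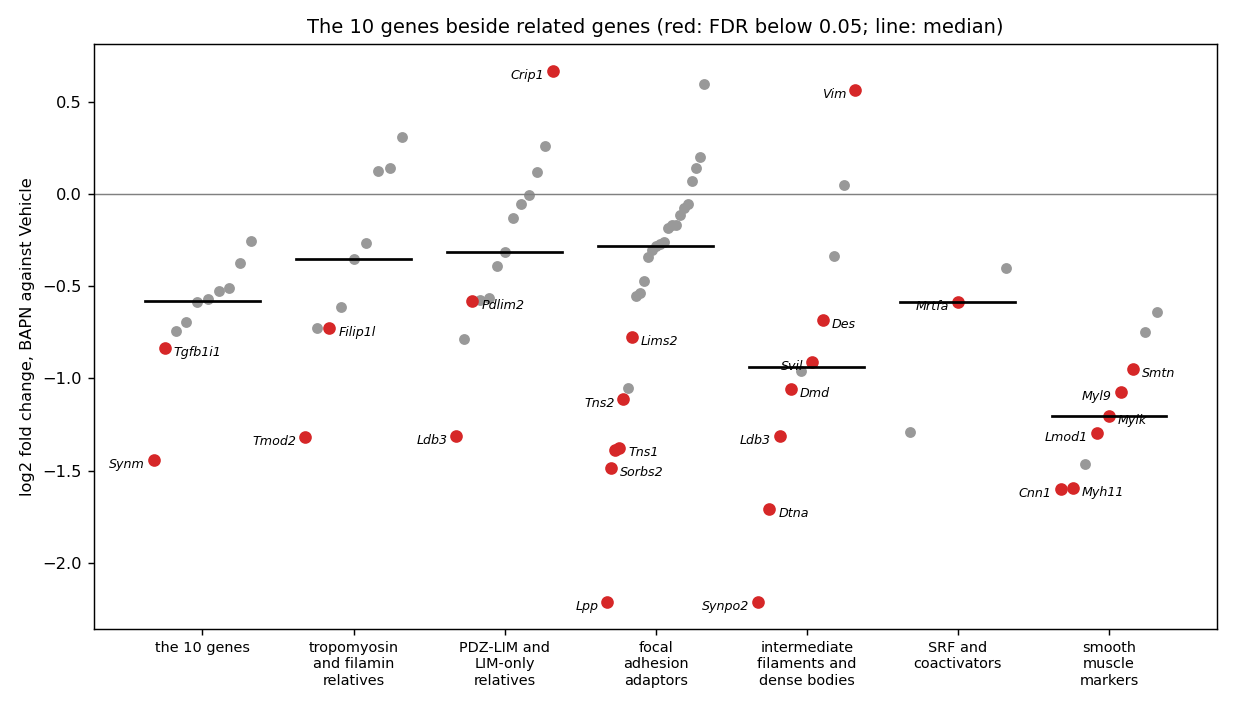
Log2 fold change of BAPN against vehicle for each of the 10 genes, of related genes in 5 lists and of smooth muscle markers, in red where the FDR was below 0.05 and with a line at the median. The median is -0.58 for the 10 genes, -0.28 for focal adhesion adaptors, -0.94 for intermediate filaments and dense bodies, and -1.20 for smooth muscle markers.

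Markers of other cell types were measured in the same libraries, and the summed levels of the pericyte and endothelial lists did not overlap between the groups. The summed level of 6 pericyte markers was between 551 and 822 CPM with BAPN and between 911 and 1960 CPM with vehicle, and 4 of the 6 were called lower. Their most abundant members were Pdgfrb (-0.74, FDR 0.0711) and Notch3 (-1.90, FDR 0.0089). Endothelial markers, 6 of 7 found, summed to between 229.7 and 436 CPM with BAPN and between 561 and 1261 CPM with vehicle, and 2 were called lower, Vwf (-1.99, FDR 0.0389) and Tek (-1.24, FDR 0.0089), with Cdh5 at -0.97 (FDR 0.0736). The 7 fibroblast markers summed to 3459 to 4974 CPM with BAPN and 3737 to 6966 CPM with vehicle, Fbln1 was called lower (-1.09, FDR 0.0194), and the most abundant ones, Dcn (-0.30, FDR 0.312) and Lum (-0.06, FDR 0.915), were not. The sums of 7 macrophage markers overlapped, at 2914 to 3696 CPM with BAPN and 2112 to 3205 CPM with vehicle, with no call by edgeR or DESeq2 (none at an unadjusted edgeR p below 0.05), and Cd68 (0.54, FDR 0.261) and Csf1r (0.17, FDR 0.526) were highest. The 5 T cell markers summed to 22.8 to 74.3 CPM with BAPN and 13.7 to 29.95 CPM with vehicle, and Cd2 was called higher (1.38, FDR 0.0138), with Cd3e at 1.41 (FDR 0.113). Of 5 tested adipocyte markers 4 had a value below 0, the median log2 FC was -1.43, and Plin1 was called lower (-2.13, FDR 0.0443), with Adipoq at -1.61 (FDR 0.0647). In Vehicle 4, Plin1 (4.54 CPM) and Adipoq (12.8 CPM) were each below every BAPN rat, and the other vehicle rats were above all BAPN rats. Fabp4, at 0.70 (FDR 0.269), made up most of the list's sum, which was 1067 to 2928 CPM with BAPN and 443 to 1706 CPM with vehicle. The part of these cells in the values of the 10 genes was not tested.

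Some of the 10 genes, among them Flnc, Pdlim3 and Synm, are also expressed in striated muscle. Of 10 skeletal muscle markers 8 were found, 2 passed the filter, Tnnt3 (0.09, FDR 0.83) and Acta1 (-2.503, edgeR FDR 0.0843, DESeq2 FDR 0.0441), and the sum of all 8 was between 18.2 and 32.7 CPM with BAPN and between 20.6 and 79.1 CPM with vehicle. Acta1 was at 0.796, 34.8, 12.5 and 3.82 CPM in Vehicle 1 to 4 and between 1.22 and 3.85 CPM with BAPN. Ckm, the muscle creatine kinase, was at 8.06 CPM in Vehicle 2 and at most 1.01 CPM in any other rat. The part of striated muscle RNA in the values of the 10 genes was not tested. Cardiac markers summed to at most 12.8 CPM in any library, Tnnt2 being the one tested (0.54, FDR 0.348), and Nppa had no count in any.

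Genes with the most similar profile were sought among 11016 named genes outside the set, by the root mean square difference over the 8 libraries between log2 CPM centred on its mean and the average centred profile of the 10 genes. Among the 5 nearest were Plekhg2, a guanine nucleotide exchange factor (0.113), Dsel, a dermatan sulfate epimerase-like enzyme (0.119), Dnal1, a dynein light chain (0.119), and Obsl1, a cytoskeletal adaptor of the obscurin family (0.138). The log2 FCs of these 4 ran from -0.74 for Obsl1 (FDR 0.055) to -0.62 for Plekhg2 (FDR 0.0646), and none of them was called by edgeR, though each had an unadjusted p below 0.05 and was called by DESeq2. Within the set Tgfb1i1 lay nearest to the average (0.121) and Synm farthest from it (0.5 log2 units).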

How the data were processed

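Total RNA was depleted of ribosomal RNA and made into stranded libraries by the authors, who deposited for each of 8 rats whole-number counts of reads per gene, without normalization. The submitters' processing notes name bcl2fastq 2.17, Trim Galore and STAR. The counting tool, the strand setting and the genome build are not given in the sources used here, so reads that paralogs or overlapping genes share could not be assigned with certainty. Groups, replicate numbers and sexes came from the sample labels, which name no batch.

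Genes whose base mean reached 100 (size factors from DESeq2 1.42.0) entered the test, as in the study's methods. BAPN was compared with vehicle in edgeR 4.0.16 under R 4.3.3, with TMM scaling, a quasi-likelihood F test and no covariate. These 11682 genes held 99.5% to 99.7% of the counts. Calls are at an FDR below 0.05 over all tested genes. Standard errors came from limma 3.58.1 (voom). Log2 CPM used a prior count of 2. The steps were first tested on simulated data. No pair of libraries in a group agreed within counting noise (chi-square per degree of freedom from 68.6 to 321). Ratios, shares and differences from markers were tested by exact two-sided permutation over 70 arrangements, which cannot give a p below 0.0286. RefSeq promoter windows of build GRCr8 were searched on both strands. Proteins were not analysed here.

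The 10 genes and the related lists were chosen with earlier results of these data known. Named from each related list were the called genes, up to 6 by FDR, and the 2 of highest mean CPM, and from each marker list the 2 of highest mean CPM. Some genes that meet this rule are not reported here. Pxn, Csrp2 and Des also stand in the ratios. Myocd, Tek, Fbln1, Cd2, Plin1, Ckm and Nppa were named after their values were seen. Alternatives were DESeq2, limma-voom, other scaling factors, other filters, libraries thinned to 1 total, a term for sex, the 5 females only, a block for replicate number, and each rat left out in turn. Leaving out both BAPN 2 and Vehicle 4 was added after seeing the data. P-values set the difference between the groups against the spread between these rats. They do not separate the treatment from a difference in library preparation that followed depth.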

Additional observations from a re-analysis of the deposited data

Results flagged for a closer look

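Within the 20 sets of 4 values (10 genes in 2 groups), 4 had a highest or lowest rat whose gap to the next one, as a share of the group's range, was above Dixon's critical value for 4 values at the 0.05 level. Chance gives about 1 in 20 such sets, and the genes share the same rats. In the BAPN group the rat was BAPN 2 for Tpm2 (632 CPM, the others between 264 and 291 CPM), Pdlim3 (57.7 CPM, the others between 12.3 and 18.6 CPM) and Tgfb1i1 (88.9 CPM, the others between 63.1 and 66.8 CPM). In the vehicle group it was Vehicle 4 for Vcl (437 CPM, the others between 262 and 271 CPM). The same 2 rats had the highest value of their group in 8 of the 10 genes each. BAPN 2 had a contractile marker mean of 8.68 on the log2 CPM scale, above Vehicle 1 at 8.56.

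The treatment by sex interaction was tested with edgeR in a design with 1 BAPN male, whose spread was taken as that of the others. No gene reached an FDR below 0.05 (1442 of 11682 had an unadjusted p below 0.05), and the FDR of the 10 genes lay between 0.244 for Pdlim7 and 0.971 for Flna.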

How the results depend on the processing

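The 10 genes kept a negative log2 fold change under every alternative but 1: in females alone Pdlim7 was at 0.17. The count of 2 called was 5 with DESeq2, 0 in females alone by edgeR (3 at an unadjusted p below 0.05), 1 with the replicate block and 1 (without BAPN 3 or BAPN 4) to 4 (without BAPN 2) with 1 rat left out, and 2 or 3 under the other alternatives. Their median of -0.58 was -0.23 in females alone and -0.80 to -0.47 with 1 rat left out. The 18 called related genes became 9 with sex as a covariate, 0 in females alone by edgeR (17 at an unadjusted p below 0.05), 5 with the replicate block, 6 to 18 with 1 rat left out, and 9 without both BAPN 2 and Vehicle 4. Of all tested genes, 3202 were called by DESeq2, 930 with sex as a covariate, 89 in females alone, 556 with the replicate block, 397 (without Vehicle 1) to 2215 (without Vehicle 2) with 1 rat left out, and 557 without both BAPN 2 and Vehicle 4. Females alone leave 5 rats. The cause of these changes, those in females alone included, was not tested. The labels do not say whether rats with the same number were paired, and some such pairs also share a sex. Deviations of rats with the same number correlated at 0.0944, -0.265, 0.269 and -0.140 for numbers 1 to 4. Of 8 rats, 3 correlated best with their own number. So few pairs cannot decide whether the numbers mark a pairing. With the replicate block Tgfb1i1 had an FDR of 0.0592. Synm kept its call under every alternative named here except females alone (FDR 0.0787). With a prior count of 0.5 in log2 CPM, the ratios and the differences from markers moved by less than the spread between rats.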
